A study of Mus musculus with 6 samples.

Results

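The liver X receptors (LXR) and the genes that move cholesterol were followed in the retina of 5XFAD mice as 10 genes chosen by name, out of 19401 genes listed in at least 1 of the 6 libraries. These were the LXR genes Nr1h2 (LXRβ) and Nr1h3 (LXRα), the transporters Abca1 and Abcg1, the apolipoprotein gene Apoe, the phospholipid transfer protein gene Pltp, the ligase gene Mylip, the lysosomal cholesterol genes Npc1 and Npc2, and the lipoprotein receptor gene Scarb1. Retinal RNAseq compared control mice with mice given efavirenz (EFV), an anti-HIV drug that at low doses activates CYP46A1, the enzyme that hydroxylates cholesterol in neurons. Of each group 3 libraries were sequenced, each made from a pool of 1 retina plus retinal pigment epithelium (RPE) from each of 5 to 6 mice, described as male, and replicates are therefore pools and not single animals. All animals of both groups were hemizygous transgenic 5XFAD mice on the B6SJL background, which carry mutant human amyloid precursor protein and mutant human presenilin 1 and have no non-transgenic littermates in this comparison. Both transgenes are driven by the neuronal Thy1 promoter. Controls drank water with Tween 80 alone. EFV was given in the same drinking water from 3 months of age, at 0.08 mg/kg of body weight by the sample labels and at a slightly higher daily dose by the methods of the study, and every animal was 9 months old when the tissue was taken.

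LXRs are nuclear receptors that bind oxysterols, the hydroxylated products of cholesterol, and act on DNA as heterodimers with a retinoid X receptor (RXR). Their classical targets load cholesterol and phospholipid onto lipoproteins (Abca1, Abcg1, Apoe, Pltp) and limit cholesterol uptake through Mylip, a ubiquitin ligase that targets lipoprotein receptors for degradation. In the eye, the RPE and the Müller glia exchange lipoprotein cholesterol with the photoreceptors, and NPC1 and NPC2 pass cholesterol out of the lysosome after lipoprotein uptake.

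Between EFV-treated and control mice, 1 of the 10 genes, Pltp, passed the limits of p and fold change, here an unadjusted p of 0.05 in edgeR and a change of at least 7% in either direction, as did 3.01% of all 15537 genes tested. The study used the same numbers with a threshold built on the Poisson distribution, and its p-values are not those of edgeR. Pltp was higher in EFV-treated mice by a log2 fold change of 0.19 (standard error, SE, 0.08), or 1.14-fold. For the other 9 genes the log2 fold changes lay between -0.10 for Abca1 and 0.01 for Nr1h3. None of the 10 genes had an adjusted p of 0.05 or less in the quasi-likelihood test of edgeR, adjusted after Benjamini and Hochberg (BH) across the whole table, where 0% of all genes did. The same test had 472 genes at an unadjusted p of 0.05 or less, and at the adjusted threshold DESeq2 called 11 genes, limma on log2(FPKM + 0.1) called 0, and none of the 10 genes was among those of DESeq2. A Poisson model, which leaves out the differences between pools, called 2043 of the 15537 genes tested, among them Abca1, Apoe and Pltp. In that model Abca1 and Apoe changed by less than the limit of 7%.

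The median log2 fold change was -0.02 over the 10 genes and 0.00 over all genes tested, with 4 of the 10 genes higher and 6 lower. The median absolute log2 fold change was 0.03 over the 10 genes and 0.06 over all genes tested. The 95% intervals of the fold change reached from 0.754 at the lowest, for Abca1, to 1.30 at the highest, for Nr1h3. Leaving out 1 library turned the sign of the difference for 7 of the 10 genes, all but Nr1h2, Pltp and Scarb1.

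**Figure D1:**
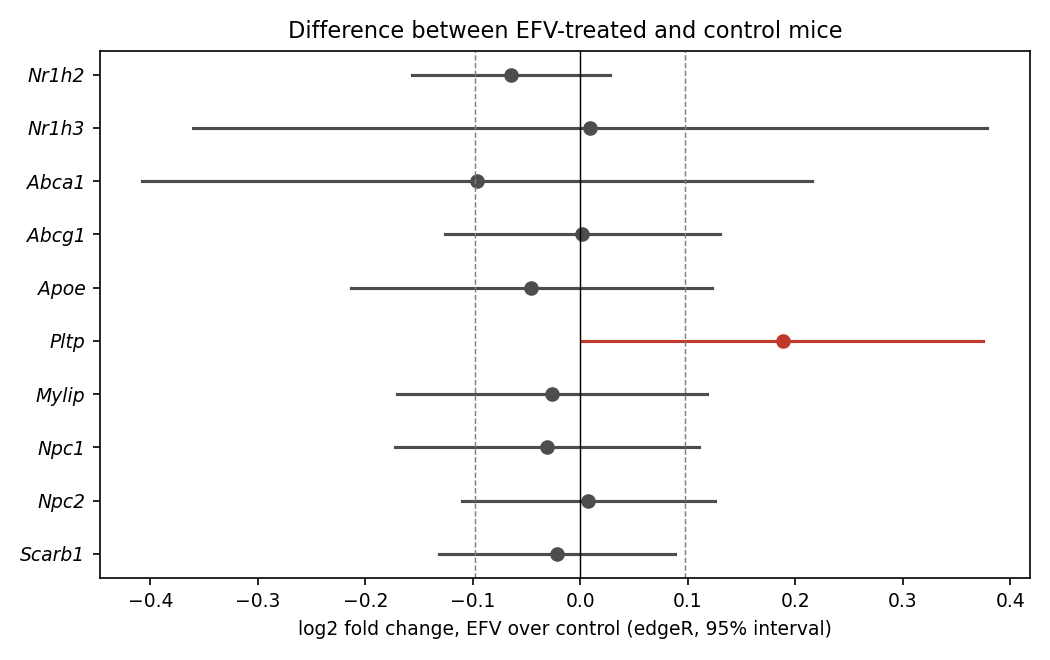
log2 fold change of each gene in EFV-treated over control mice from edgeR (dots) with its 95% interval (lines), the dashed lines marking the limit of 7% in either direction. The interval of Pltp (red) runs from 0.00 to 0.37, and the intervals of the other 9 genes include 0.

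Promoters are shown for 3 genes, Abca1 because it varied most between libraries, Pltp because it had the smallest p, and Nr1h2 as the more abundant receptor gene. The sequences are from RefSeq (GRCm38.p6), run 5′ to 3′ on the strand of the gene, and cover 250 bases before and 50 after a start site. The table held promoters of 7 of the 10 genes. For Abca1 (chr4:53159846-53160145, minus strand), the capitals mark a match to a direct repeat of the nuclear receptor hexamer. For Pltp (chr2:164857659-164857958, minus strand) they mark a match to the TATA box motif that begins at position 37 after the start site, and for Nr1h2 (chr7:44553916-44554215, minus strand) matches to the core motif of ETS factors.
Abca1: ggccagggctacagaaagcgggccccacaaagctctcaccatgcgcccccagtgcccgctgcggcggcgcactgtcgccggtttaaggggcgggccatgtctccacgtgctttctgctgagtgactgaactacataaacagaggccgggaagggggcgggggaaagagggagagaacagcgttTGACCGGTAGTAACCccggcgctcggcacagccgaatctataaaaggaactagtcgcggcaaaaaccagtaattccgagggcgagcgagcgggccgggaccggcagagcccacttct
Pltp: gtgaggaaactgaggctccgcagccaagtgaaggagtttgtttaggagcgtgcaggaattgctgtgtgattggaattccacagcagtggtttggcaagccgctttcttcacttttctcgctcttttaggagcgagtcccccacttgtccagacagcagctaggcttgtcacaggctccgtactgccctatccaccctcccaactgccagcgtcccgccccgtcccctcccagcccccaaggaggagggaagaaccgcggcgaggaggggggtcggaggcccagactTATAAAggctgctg
Nr1h2: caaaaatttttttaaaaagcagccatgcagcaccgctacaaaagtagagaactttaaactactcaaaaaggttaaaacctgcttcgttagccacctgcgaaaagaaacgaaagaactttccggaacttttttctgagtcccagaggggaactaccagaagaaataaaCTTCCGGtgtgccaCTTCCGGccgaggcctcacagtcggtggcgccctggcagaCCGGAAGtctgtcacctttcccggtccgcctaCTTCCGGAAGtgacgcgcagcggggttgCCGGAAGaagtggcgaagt

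The motifs were searched on both strands in 32851 promoters of the same length. The direct repeat with 4 bases between its hexamers, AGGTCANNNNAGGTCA, was in 5 of them (0.0152%) and in none of the 10 promoters of the genes described here. The shorter form with free bases, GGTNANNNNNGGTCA, was in 68 (0.207%), among them the promoter of Abca1, where it read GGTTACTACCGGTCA on the strand opposite to the gene. These bases, chr4:53159948-53159962, begin at position -67 from the start site. They lie upstream of the first exon of Abca1 in GENCODE vM21, which places the gene at chr4:53030787-53159895, and inside the outer bounds of the RefSeq gene, chr4:53030789-53159988. The E-box CACGTG was in 7.15% of promoters and also in that of Abca1. The TATA box motif TATAAA was in 13.6% and in promoters of Abca1, Apoe, Pltp and Mylip, upstream of the start site in all but that of Pltp. It began at position -29 in Abca1 and at -32 in Mylip. For Apoe, which had 3 promoters, only that at chr7:19698572-19698871 held the motif, at -96 and -100. The start site of this promoter lies inside the gene in GENCODE vM21, chr7:19696109-19699188. The ETS motif CTTCCGG was in 8.86% and in the promoters of Nr1h2, where it occurred at 6 positions, a pair of them overlapping on opposite strands, and Npc2. The promoter of Nr1h2 had a GC content of 50.7% and that of Abca1 62.7%, and the median of all promoters was 52.7%.

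The depth of the libraries was close, with sums of the expected counts of 24590278, 23455167 and 24337444 in control libraries 1, 2 and 3 and of 24487218, 24360060 and 24160101 in EFV libraries 1, 2 and 3. The label of the tissue was checked against marker genes. The FPKM (fragments of a gene divided by transcript length and library total) summed over 6 rod markers, led by Gnat1, ranged 1.06-fold over the 6 libraries. The 5 markers of Müller glia, led by Glul, ranged 1.06-fold in summed FPKM, and the 7 of microglia, led by C1qa, 1.19-fold. The 5 cone markers, led by Pde6h, and the 6 endothelial markers, led by Kdr, both ranged 1.19-fold, and the 5 markers of blood, led by Hba-a1, 2.55-fold. Of the oligodendrocyte markers, led by Mbp, Mog and Mobp were listed at 0 in at least 1 library, as was Lum of the fibroblast markers, whose most abundant gene was Pdgfra.

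Some libraries stood apart. Control library 3 lay farthest off in its counts (chi-square per degree of freedom of 11.5 or more against each, where the other pairs had 9.38 or less). It held lens RNA. The summed FPKM of 6 lens markers, led by the crystallin gene Crybb1, was 166.4 in this library against 5.32 and 6.64 in the other control libraries and 6.34, 3.64 and 7.31 in the EFV libraries, and all 5 lens markers tested were lower in EFV-treated mice past the same limits. Control library 2 was low in RPE markers. The summed FPKM of 8 of them, led by Ttr, was 58.4, 30.1 and 55.5 in control libraries 1, 2 and 3 and 52.0, 65.0 and 66.9 in EFV libraries 1, 2 and 3. All 8 RPE markers had a higher fitted level in EFV-treated mice with edgeR, under each scaling (7 of 8 with limma on log2(FPKM + 0.1)), and Rpe65 and Lrat passed the same limits. In these bulk libraries, fewer cells of a type and less RNA per cell cannot be told apart.

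**Figure D2:**
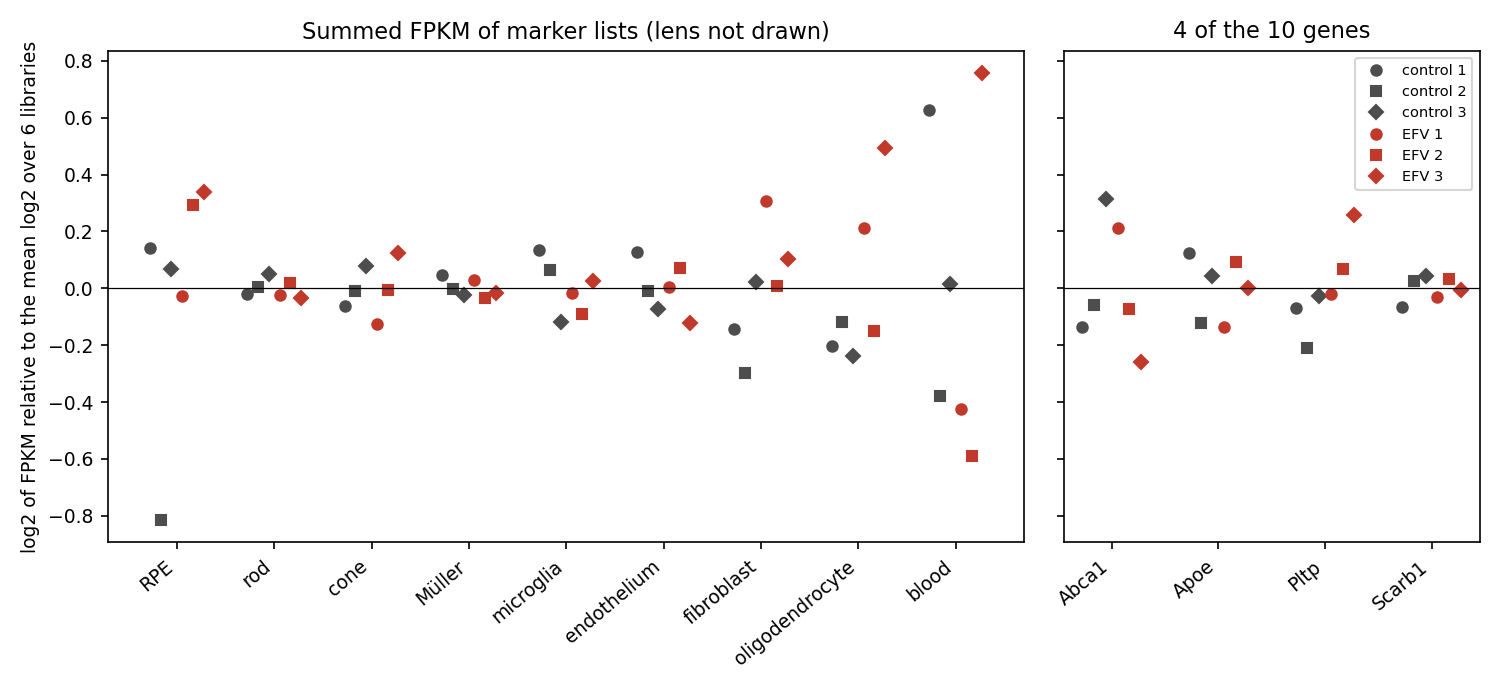
log2 FPKM relative to the mean log2 of the 6 libraries, for the summed FPKM of 9 marker lists (left) and for 4 of the genes described here (right), with control libraries in grey and EFV libraries in red and the shape giving the replicate number. Control library 2 is the lowest in RPE markers and in Pltp, and EFV library 3 is the highest in both.

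The supply of LXR ligands depends on the enzymes that make and remove oxysterols. Of the 6 such genes listed, 4 had at least 10 counts in at least 3 libraries and were tested, 3 of them higher and 1 lower after EFV, and 0 passed the limits of p and fold change with edgeR. Ch25h and Sult2b1 were under this count minimum. Cyp46a1, which makes 24-hydroxycholesterol, had an FPKM of 7.27, 6.49 and 6.72 in control and 7.23, 6.91 and 8.20 in EFV libraries. The groups overlapped, and the log2 fold change was 0.11 (SE 0.08, edgeR adjusted p = 0.999). Cyp27a1, which makes 27-hydroxycholesterol, had an FPKM of 3.22, 3.18 and 3.65 in control and 3.71, 4.03 and 3.99 in EFV libraries. All 3 EFV libraries were above all 3 control libraries, where 7.67% of all genes tested had groups that did not overlap in FPKM in either direction. The log2 fold change of Cyp27a1 was 0.21 (SE 0.11) and did not pass the limits (adjusted p = 0.999 in edgeR). Cyp7b1, which removes oxysterols by 7α-hydroxylation, had an FPKM of 1.83, 1.88 and 2.10 in control and 1.84, 1.46 and 1.73 in EFV libraries. Scaled to the library sizes, its EFV libraries lay below its control libraries, as 8.14% of all genes tested lay on one side or the other. Its log2 fold change was -0.23 (SE 0.16, edgeR adjusted p = 0.999).

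Of the receptors, Nr1h2 had an FPKM of 42.8, 39.4 and 40.4 in control libraries 1, 2 and 3 and of 40.3, 39.5 and 39.6 in EFV libraries 1, 2 and 3. Control library 1 was the highest and the FPKM of the groups overlapped. After scaling by TMM, which corrects the library sizes, the 3 EFV libraries lay just below the 3 control libraries, as 8.14% of all genes tested lay on one side or the other. The log2 fold change was -0.06 (SE 0.04, edgeR adjusted p = 0.999). Nr1h3 had an FPKM of 1.98, 1.83 and 1.80 in control and of 2.07, 1.99 and 1.73 in EFV libraries. The highest and the lowest value were both in the EFV group, and the log2 fold change was 0.01 (SE 0.16, edgeR adjusted p = 0.999). With 70 to 87 counts per library, counting error alone gives Nr1h3 a coefficient of variation of 11.3%, and the observed one was 6.95%.

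The level of Nr1h2 per transcript length was 19.5 to 22.9 times that of Nr1h3 in every library. This ratio of FPKM was 21.6, 21.5 and 22.4 in control and 19.5, 19.9 and 22.9 in EFV libraries. EFV library 3 had the highest ratio of all and EFV library 1 the lowest, so that the groups overlapped. The difference of the mean log2 ratio was -0.08 (exact two-sided permutation test, p = 0.40, where 3 libraries against 3 cannot go below 0.10).

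All 10 genes of RXR and of LXR cofactors were tested, 3 with a higher and 7 with a lower fitted level in EFV-treated mice, and 0 passed the limits with edgeR. Their log2 fold changes lay between -0.07 and 0.04. The most abundant were the corepressor gene Ncor1, with an FPKM from 33.1 to 37.4, and the coactivator gene Ncoa1, from 24.1 to 27.2. The smallest p belonged to the coactivator gene Ncoa3, whose FPKM was 6.00, 5.93 and 5.82 in control and 5.76, 5.78 and 5.73 in EFV libraries. All EFV values were below the control values, where 7.67% of all genes tested had groups that did not overlap in FPKM in either direction. The log2 fold change of Ncoa3 was -0.06 (SE 0.05, edgeR adjusted p = 0.999). Nrip1, a corepressor gene, had a log2 fold change of -0.07 (SE 0.08).

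Abca1 exports cholesterol and phospholipid to lipid-poor apolipoproteins. Its FPKM was 5.90, 6.23 and 8.06 in control libraries 1, 2 and 3 and 7.51, 6.16 and 5.41 in EFV libraries 1, 2 and 3. Control library 3, the one with lens RNA, had the highest value and EFV library 3 the lowest, 1.49-fold apart, the widest range of the 10 genes. The coefficient of variation over the 6 libraries was 15.6%, where counting error gives 2.49%. The log2 fold change was -0.10 (SE 0.14, edgeR adjusted p = 0.999). Without control library 3 it was 0.05 and without EFV library 3 it was 0.01, and the part of the lens RNA in these values was not tested.

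Abcg1, which passes cholesterol on to mature high-density particles, had an FPKM of 22.4, 22.7 and 25.5 in control and 24.5, 23.7 and 23.3 in EFV libraries. The control libraries held both the lowest and the highest value, and the log2 fold change was 0.00 (SE 0.06, edgeR adjusted p = 0.999). The ratio of Abcg1 to Abca1 in FPKM was from 3.17 in control library 3 to 4.31 in EFV library 3.

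**Figure D3:**
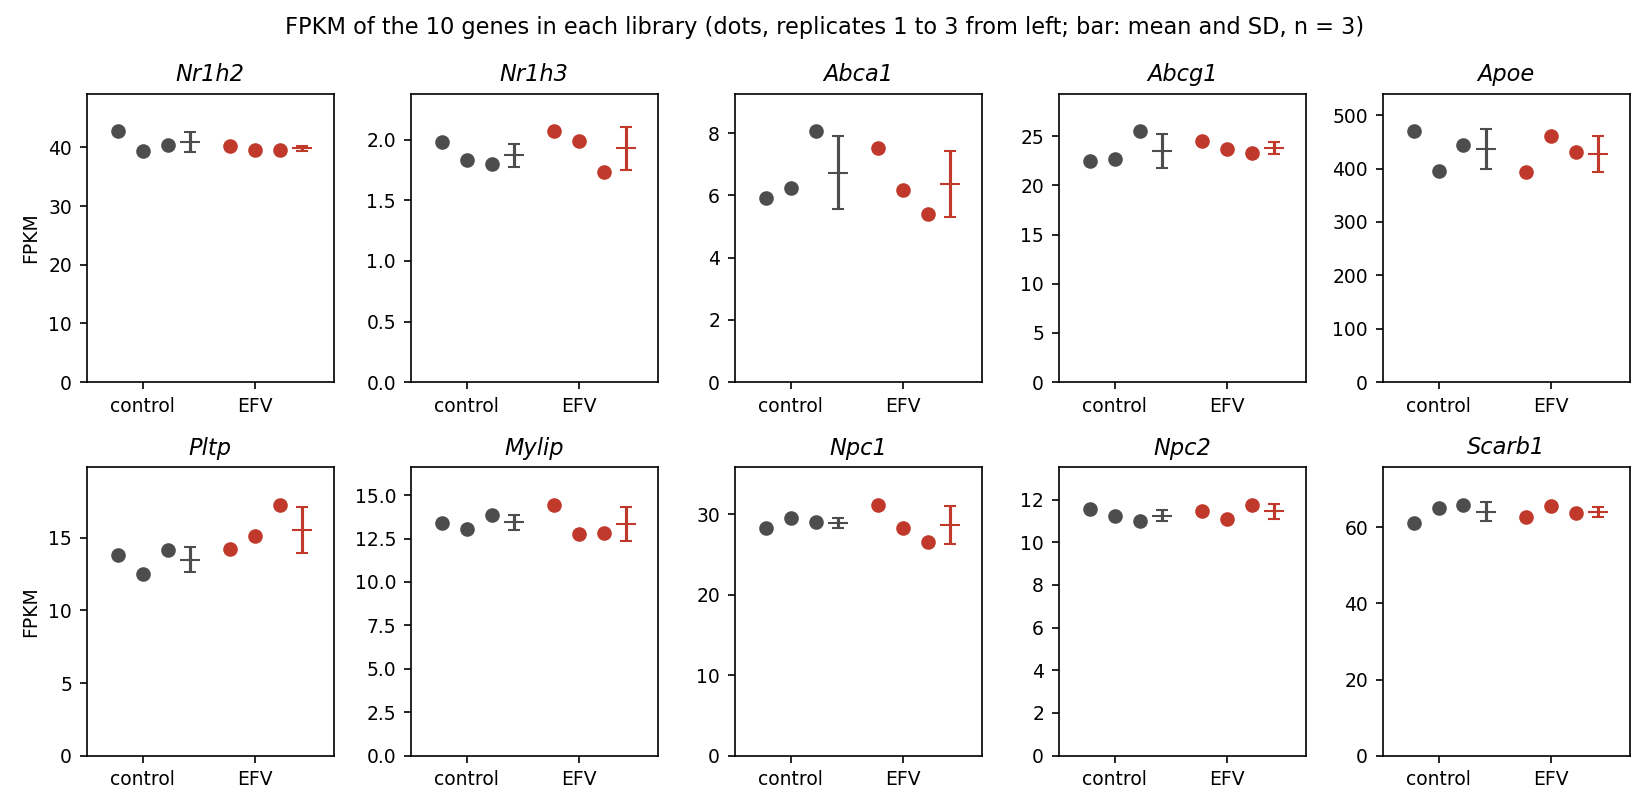
FPKM of the 10 genes in each library (dots, replicates 1 to 3 from left to right) for control (grey) and EFV-treated mice (red), with the mean and SD of each group (bars, n = 3) and each axis starting at 0. The groups overlap in FPKM for every gene but Pltp, whose lowest EFV value is 14.23 and highest control value 14.16.

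Apoe, which encodes the main apolipoprotein of the nervous system, was the most abundant of the 10 genes, and 99.6% of the tested genes with an Entrez identifier had a lower mean FPKM. Its FPKM was 470.0, 396 and 444 in control libraries 1, 2 and 3 and 393, 460.1 and 431 in EFV libraries 1, 2 and 3. Control library 1 was the highest and EFV library 1 the lowest, and the groups overlapped. The log2 fold change had an interval from -0.21 to 0.12 (edgeR adjusted p = 0.999), and it was 0.00 without control library 1 and 0.01 without EFV library 1. With 11430 to 14223 counts per library, counting error gives a coefficient of variation of 0.881%, against 7.47% between the pools.

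Pltp transfers phospholipid between lipoproteins and remodels high-density particles. Its FPKM was 13.78, 12.50 and 14.16 in control libraries 1, 2 and 3 and 14.23, 15.13 and 17.28 in EFV libraries 1, 2 and 3. All EFV values were above all control values in FPKM, where 7.67% of all genes tested had groups that did not overlap in FPKM in either direction, but EFV library 1 and control library 3 differed by little, and after TMM scaling EFV library 1 was below control library 3. The log2 fold change was 0.19 with an interval from 0.00 to 0.37 (unadjusted p = 0.0481 and adjusted p = 0.999 in edgeR). Without control library 2 it was 0.14 and without EFV library 3 it was 0.11, with unadjusted p-values of 0.157 and 0.183 in edgeR, so that the gene no longer passed the limits. It also missed them without control library 1 (log2 fold change 0.20, unadjusted p = 0.0746) or EFV library 2 (0.20, unadjusted p = 0.0768) and with DESeq2 (0.19, unadjusted p = 0.0681), where the difference was about as large, and passed them without control library 3 (0.22, unadjusted p = 0.0463) or EFV library 1 (0.25, unadjusted p = 0.0165). The libraries that were lowest and highest in Pltp, control library 2 and EFV library 3, were also the lowest and highest in the summed FPKM of RPE markers (30.1 and 66.9), and over the 6 libraries the log2 values of Pltp and of these markers had a Pearson r of 0.80 (Spearman coefficient 0.83). Some of the other genes had a larger coefficient with another marker list, as Nr1h3 with cone markers (r = -0.93) and Npc2 with rod markers (r = -0.92). EFV library 3 was also the highest in oligodendrocyte, cone and blood markers. The part of these markers in the difference was not tested.

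Mylip had an FPKM of 13.4, 13.03 and 13.9 in control and 14.5, 12.8 and 12.8 in EFV libraries. EFV library 1 was the highest and the other EFV libraries the lowest, and the log2 fold change was -0.03 (SE 0.06, edgeR adjusted p = 0.999). The log2 fold changes of Mylip and of Npc1 were 0.01 and 0.03 without EFV library 3.

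Among 21 other LXR target genes listed, 14 were tested, 9 with a higher and 5 with a lower fitted level in EFV-treated mice, and 1 passed the limits with edgeR, Apod. Over this list the median log2 fold change was 0.06. Apod, which encodes a lipocalin of glia and fibroblasts, had an FPKM of 0.57, 0.54 and 0.51 in control and 1.03, 0.69 and 0.86 in EFV libraries, from 25 to 28 and from 34 to 51 counts. The EFV libraries were all higher, where 7.67% of all genes tested had groups that did not overlap in FPKM in either direction. Apod was higher by 1.59-fold (log2 fold change 0.67, SE 0.24, with unadjusted p = 0.0197 and adjusted p = 0.999 in edgeR). Without control library 3 (log2 fold change 0.64, unadjusted p = 0.0528 in edgeR), without EFV library 1 (0.52, unadjusted p = 0.0754) and with DESeq2 (0.67, unadjusted p = 0.0728) it no longer passed the limits. The summed FPKM of 6 fibroblast markers was 2.84, 2.55 and 3.18 in control and 3.88, 3.15 and 3.37 in EFV libraries, and that of 5 oligodendrocyte markers 10.7, 11.3 and 10.4 in control and 14.3, 11.1 and 17.3 in EFV libraries. All 5 fibroblast and both oligodendrocyte markers tested had a higher fitted level in EFV-treated mice with edgeR (3 of 5 and both with limma on log2(FPKM + 0.1)). With edgeR 1 of each passed the limits, Col1a2 (log2 fold change 0.50, SE 0.20, with groups that did not overlap) and Mbp (0.20, SE 0.09). The other fibroblast markers tested had log2 fold changes of 0.03 (Col1a1, SE 0.25), 0.02 (Col3a1, SE 0.38), 0.38 (Dcn, SE 0.32) and 0.14 (Pdgfra, SE 0.11). The part of the fibroblast and oligodendrocyte markers in the difference of Apod was not tested.

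Scd2, a stearoyl-CoA desaturase gene and the most abundant of these other targets, had an FPKM from 81.2 in EFV library 3 to 98.9 in control library 3, with a log2 fold change of -0.04 (SE 0.08). Srebf1, which encodes the transcription factor that drives fatty acid synthesis, ranged from 35.8 to 41.9, its highest value again in control library 3 (log2 fold change -0.07, SE 0.06). Arl4c, a small GTPase gene, had a log2 fold change of 0.11 (SE 0.07). This value was 0.05 without control library 3. Without control library 1 it was 0.18 and passed the limits (unadjusted p = 0.02475 in edgeR).

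Scarb1 encodes a receptor that takes up cholesteryl ester from high-density particles. Its FPKM was 61.2, 65.2 and 66.0 in control and 62.8, 65.5 and 63.8 in EFV libraries. The 3 EFV values lay inside the range of the control values, and the log2 fold change of -0.02 (SE 0.05, edgeR adjusted p = 0.999) has a 95% interval of the fold change from 0.913 to 1.06. Of 14 lipoprotein receptors and their regulators 12 were tested, 7 with a higher and 5 with a lower fitted level, and 0 passed the limits with edgeR. Lrpap1, the chaperone gene of this receptor family, and Vldlr were the most abundant, with an FPKM from 36.2 to 40.04 and from 34.7 to 39.9. Sorl1, a sorting receptor gene, had an FPKM of 12.96, 12.01 and 12.5 in control and 12.9, 13.4 and 13.9 in EFV libraries, and its log2 fold change was 0.08 (SE 0.05, edgeR adjusted p = 0.999). The fold change of Lsr, the gene of the lipolysis-stimulated lipoprotein receptor, was the largest of the list at 1.91, but rested on 3 to 18 counts per library. The log2 fold change of Lsr was 0.94 with all libraries and 0.59 without control library 2. Without control library 1 it was 1.95 and passed the limits (unadjusted p = 0.00421 in edgeR).

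Npc1, the membrane protein of the lysosomal exit, had an FPKM of 28.3, 29.5 and 29.1 in control and 31.2, 28.3 and 26.5 in EFV libraries. The EFV libraries held the highest and the lowest value, and the log2 fold change was -0.03 (SE 0.06, edgeR adjusted p = 0.999). Npc2, its soluble partner, had an FPKM of 11.5, 11.2 and 10.99 in control and 11.5, 11.1 and 11.8 in EFV libraries. It varied least of the 10 genes, and its coefficient of variation of 2.59% was below the 3.36% that counting error gives. The log2 fold change was 0.01 (SE 0.05, edgeR adjusted p = 0.999). The ratio of Npc1 to Npc2 in FPKM was 2.45, 2.63 and 2.65 in control and 2.72, 2.55 and 2.26 in EFV libraries.

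All 17 genes of lysosomal and intracellular sterol traffic were tested, 10 with a higher and 7 with a lower fitted level, and 0 passed the limits with edgeR. Gramd1b, which encodes a sterol carrier between the plasma membrane and the endoplasmic reticulum, and the lysosomal membrane gene Lamp1 were the most abundant, with an FPKM from 89.7 to 101.7 and from 90.5 to 98.4. Their log2 fold changes were 0.01 (SE 0.05) and -0.03 (SE 0.05). Gramd1a had a log2 fold change of -0.07 (SE 0.05) and Gramd1c one of 0.34 (SE 0.27) at 25 to 43 counts.

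Of the other lipid-exporting ABC transporters all 6 were tested, 4 with a higher and 2 with a lower fitted level, and 0 passed the limits with edgeR and TMM scaling. Abcg4, the neuronal relative of Abcg1, was the most abundant and ranged from 46.9 to 50.9 in FPKM, above Abcg1 in every library. It was followed by Abca8a, from 31.5 to 35.8. Abca7 had an FPKM of 8.60, 8.46 and 8.73 in control and 8.67, 9.74 and 9.85 in EFV libraries. Only EFV library 1 lay among the controls, and the log2 fold change was 0.12 (SE 0.06, edgeR adjusted p = 0.999). Abca7 passed the limits under total counts scaling (0.13, unadjusted p = 0.0452) and without EFV library 1 (0.17, unadjusted p = 0.00545). Abca8b had a log2 fold change of -0.05 (SE 0.06).

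Of 11 genes of apolipoproteins and lipoprotein remodelling, 5 were tested, 1 with a higher and 4 with a lower fitted level, and 0 passed the limits with edgeR. Clu, which encodes clusterin, came closest to Apoe in FPKM, with an FPKM of 357, 353 and 429 in control and 336, 358 and 349 in EFV libraries. Control library 3 stood above the other 5 libraries, which overlapped between the groups, and the log2 fold change was -0.14 (SE 0.07, edgeR adjusted p = 0.999). Clu passed the limits with DESeq2 (-0.14, unadjusted p = 0.0247) and, with edgeR, without control library 1 (-0.19, unadjusted p = 0.0409) or 2 (-0.19, unadjusted p = 0.0467), and the log2 fold change was -0.05 without control library 3. Mttp, the transfer protein gene for lipoprotein assembly, ranged from 4.72 to 5.20 in FPKM, and the lipase gene Lipg had a log2 fold change of -0.12 (SE 0.18).

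Over the 7 lists together, 68 of 85 genes were tested, 37 with a higher and 31 with a lower fitted level in EFV-treated mice, and Apod was the 1 gene past the limits with edgeR, or 1.47% of the list against 3.01% of all genes tested. The median log2 fold change was 0.01. Scaling by total counts gave 43 genes a higher level, and the list of RXR and cofactors then had 6 of 10 genes higher in place of 3. Under total counts scaling Abca7 passed the limits beside Apod, with limma on log2(FPKM + 0.1) Cyp27a1 passed them beside Apod, and with DESeq2 Clu in place of Apod. With 1 library left out, Apod passed in 4 of 6 fits, Clu in 2 and Abca7, Arl4c, Cd36, Gramd1a, Lsr, Sorl1 and Vldlr in 1 each. The Poisson model passed 9 of the 68 genes, among them Apod, Clu, Abca7, Arl4c, Cd36, Cyp27a1, Lsr and Scd1. The same model passed 2305 of all 15537 genes tested. The groups did not overlap after TMM scaling for 4 of the 68 genes, Cyp27a1, Cyp7b1, Ncoa3 and Apod, or 5.88% against 8.14% of all genes tested. The 15 genes that were listed but under the count minimum had an FPKM of 0.41 or less in every library.

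**Figure D4:**
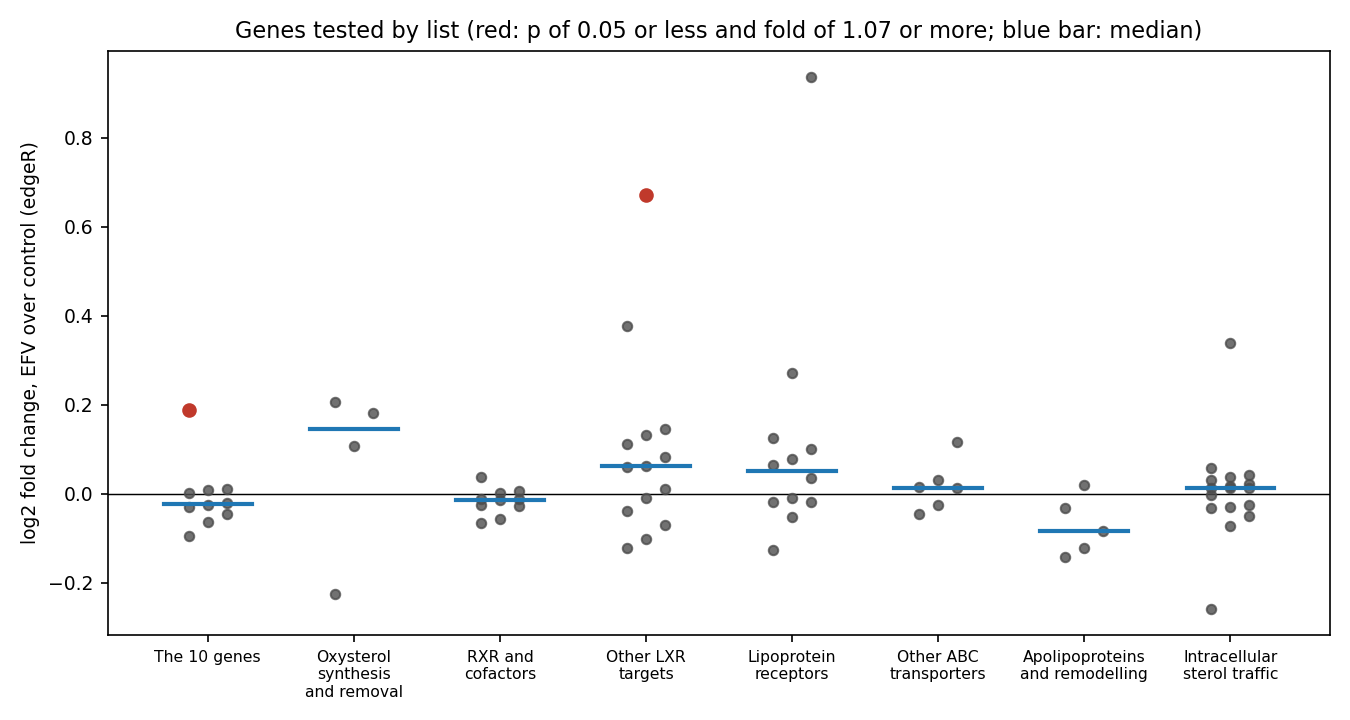
log2 fold change in EFV-treated over control mice (edgeR) of each gene tested, for the 10 genes and the 7 lists (dots, spread sideways for visibility), with genes past both limits in red and the median of each list in blue. The red points are Pltp and Apod, and the list medians lie between -0.08 and 0.14.

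Per transcript length, the 10 genes fell in the order Apoe, Scarb1, Nr1h2, Npc1, Abcg1, Pltp, Mylip, Npc2, Abca1 and Nr1h3, with a mean FPKM over the 6 libraries of 432, 64.1, 40.3, 28.8, 23.7, 14.5, 13.4, 11.3, 6.55 and 1.90. The ranges over the libraries did not overlap between neighbours, except for Pltp and Mylip. The values are scaled for length, and the lengths that the authors' program listed ran from 1288 bases for Apoe to 10260 for Abca1. For Abca1, 1 of the 2 transcripts counted was named BGI_novel in the files, as were 2 of 6 for Nr1h2.

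The 10 genes had no common order of the libraries. After TMM scaling, EFV library 3 was the lowest library for 5 of them (Nr1h2, Nr1h3, Abca1, Mylip and Npc1) and the highest for Pltp and Npc2. Control library 3 was the highest on this scale for Abca1, Abcg1 and Scarb1. Across the 6 libraries, which share their depth and their mixtures of cells, 22 of the 45 pairs of genes had a Pearson r above 0 and 23 below, with a median of 0.00. The highest was that of Abca1 and Abcg1 (r = 0.88, Spearman coefficient 0.89, over 6 libraries), followed by Abca1 and Mylip (r = 0.86, Spearman coefficient 0.77). Without control library 3 and EFV library 1, the libraries farthest from the median of Abca1, these fell to 0.34 and 0.55. The same step raised the r of Abca1 with Npc1 from 0.75 to 0.955 and with Scarb1 from 0.36 to 0.65. Over all 6 libraries the lowest r was that of Abcg1 and Npc2 (r = -0.84, Spearman coefficient -0.89).

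**Figure D5:**
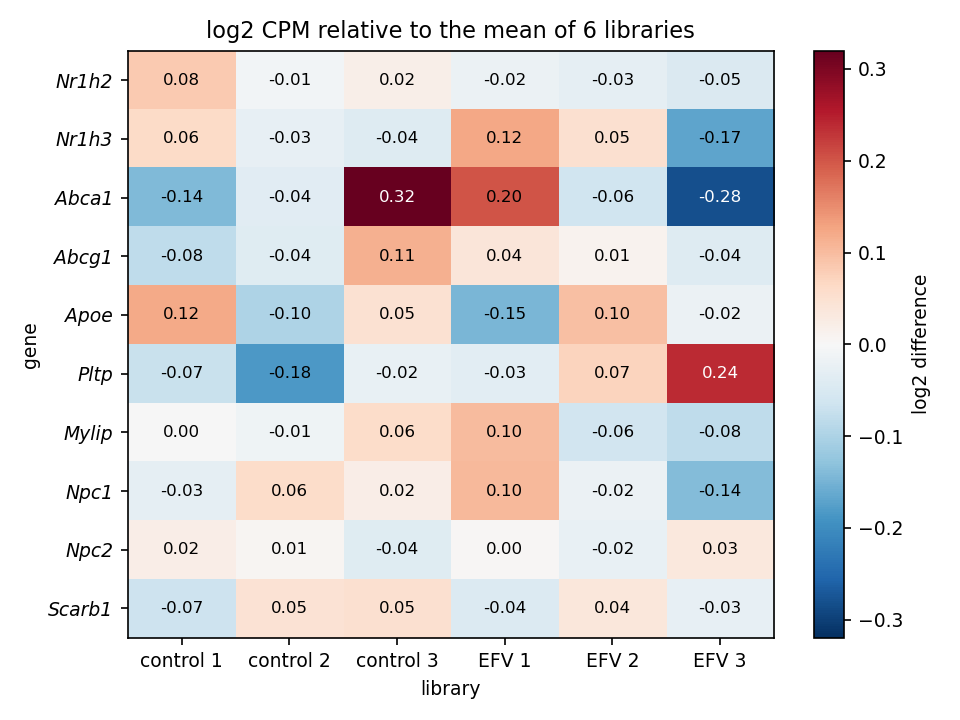
log2 counts scaled to library size (CPM, TMM scaling) of each gene in each library relative to its mean over the 6 libraries, with red above and blue below the mean. Abca1 spans from -0.28 in EFV library 3 to 0.32 in control library 3, and no row apart from that of Nr1h2 separates the 3 control from the 3 EFV libraries.

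Among the 14376 other tested genes with an Entrez identifier, the pattern over the 6 libraries was most like that of Apoe for Mab21l2 (r = 0.99), Exosc8 (r = 0.97) and Anxa2 (r = 0.97). Their mean FPKM was 25.7, 11.2 and 6.52. The pattern was most like that of Pltp for Ppp1r21 (r = 0.99), Gga3 (r = 0.98) and Itga5 (r = 0.98), with a mean FPKM of 13.7, 20.6 and 0.528. With 6 libraries an r above 0.95 was reached by 9 genes for Apoe and by 28 for Pltp.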

How the data were processed

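Per the labels, the authors used HISAT2 2.0.4 and Bowtie2 2.2.5 to align reads to mm10, the mouse genome, and estimated the expected counts per gene with RSEM 1.2.12; these deposited expected counts are not normalized. The authors made the deposited FPKM with the same program, which scales for transcript length and library total. The transcript length, a deposited value in another unit (bases), was used to describe this step, and the FPKM was not recomputed from it. Filter settings, annotation release and strandedness are not given in the sources used here. Labels describe selection of polyadenylated RNA.

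Expected counts were rounded, and genes reaching 10 counts in 3 or more of the 6 libraries were tested with edgeR 4.0.16 (R 4.3.3; TMM, quasi-likelihood, group as the only term, two-sided, BH over all genes tested). The limits of p and fold change were an unadjusted p of 0.05 in edgeR and a change of at least 7%; the study took the same numbers with a Poisson threshold. Alternatives were RLE and total count scaling, other filters, DESeq2 1.42.0, limma 3.58.1 on log2(FPKM + 0.1) and log2(FPKM + 1), a Poisson model, a replicate block and leaving out each library. The edgeR step was tested on simulated data. Replicates are separate pools of mice, grouped by their labels. The 10 genes and the lists were chosen with earlier results of these data known. From each list, genes past the limits in any fit, up to 2 with the highest mean FPKM and up to 2 with the smallest p were named; from each marker list, the most abundant gene and every marker at 0; and for Apoe and Pltp the 3 genes of highest Pearson r. Ch25h, Sult2b1, Rpe65, Lrat, Col1a1, Col1a2, Col3a1 and Dcn were named after their values were seen, as they make up counts given in the text. A rod marker and a listed gene that passed the limits only under alternatives are not reported here. The listed genes Cyp7a1 and Apob were not analysed here.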

Additional observations from a re-analysis of the deposited data

How the results depend on the processing

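The log2 fold changes of the 10 genes were recomputed under 15 alternatives each. Of the 150 values, 129 kept their direction and their side of the limits of p and fold change, 5 (all of Pltp, given beside its result) kept the direction but missed the limits, and 16 changed sign, all 16 of them when a library was left out; the cause was not tested. With each library left out in turn, the log2 fold change ranged from -0.054 to 0.092 for Nr1h3, from -0.23 to 0.053 for Abca1, from -0.037 to 0.062 for Abcg1, from -0.11 to 0.014 for Apoe, from -0.086 to 0.0072 for Mylip, from -0.094 to 0.028 for Npc1 and from -0.011 to 0.020 for Npc2. Nr1h2, Pltp and Scarb1 kept their sign under every alternative run, but ranged from -0.086 to -0.037, from 0.11 to 0.25 and from -0.059 to -0.0018 with a library left out. At the adjusted threshold the number of genes called over the whole table was 0 with edgeR, 11 with DESeq2 and 2043 with a Poisson model and from 0 to 1 with a library left out. At the limits of p and fold change it was 467 with edgeR, 269 with DESeq2, 2305 with the Poisson model and from 389 to 576 with a library left out. Of the 10 genes, the Poisson model called 3 at the adjusted threshold (Abca1, Apoe and Pltp), where it called 2043 of all 15537 genes tested. At the limits of p and fold change 1 of the 10 genes passed, with 0 in DESeq2 and from 0 to 1 with a library left out. Of the genes of the 7 lists 1 passed, with 2 under total count scaling, 2 under limma on log2(FPKM + 0.1), 2 under limma on log2(FPKM + 1), 9 under the Poisson model and from 1 to 5 with a library left out. DESeq2 also passed 1, Clu and not Apod. Of the genes past the limits, which are not the same genes in each fit, 228 were higher and 239 lower with edgeR, 288 higher and 159 lower under total count scaling, and 297 higher and 192 lower under limma on log2(FPKM + 0.1). The ratio of Nr1h2 to Nr1h3 was lower in EFV-treated mice under each alternative, by a log2 difference from -0.15 to -0.04 with a library left out and of -0.07 in expected counts. The replicate numbers were not taken as pairs, since the deviations of same-numbered libraries correlated by 0.12, 0.08 and 0.10, although each library correlated best with its own number, which is a hint from the data and not from the design; a fit with the replicate number as a block moved the genes past the limits to 514, called 0 genes at the adjusted threshold and gave Pltp a log2 fold change of 0.19 (unadjusted p = 0.0348 in edgeR). Counting error is at least as large as the spread between libraries for Nr1h3 and Npc2, and for the other 8 genes the spread is larger.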
